A study of Mus musculus with 24 samples.

Results

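The comparison described here is the response to a peripheral injection of lipopolysaccharide (LPS) in CD11b-sorted cells of the frontal cortex of adult mice whose dams had undergone maternal immune activation (MIA). Its members are 6 of the 24 libraries deposited, taken by their labels as 3 MIA cortex LPS libraries and 3 MIA cortex saline libraries, and it was followed across the 17139 genes tested of 55487 in the table. All mice were males of 8 to 10 weeks, with or without MIA in their mothers. They were injected intraperitoneally with saline or with LPS at 4500 endotoxin units per gram of body weight, and microglia were collected 18 hours later from frontal cortex or striatum. The labels do not name the strain, the stimulus given to the dams, the number of litters, or whether a library holds 1 animal or a pool. The p-values below therefore measure the spread between libraries of a group, which may be technical. That spread was estimated over the 23 libraries of all 8 groups in the fit, not over these 6 alone. Control mice shared every step other than the prenatal history.

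LPS is a cell wall component of Gram-negative bacteria that the receptor Tlr4 recognises together with Cd14 and Ly96. Signalling through Myd88 activates NF-kB and the genes of inflammatory cytokines, and signalling through Ticam1 induces type I interferon and through it a large set of antiviral genes. Microglia are the resident macrophages of the brain, and in acute inflammation they are known to lower the genes of their surveying state while raising those of defence, phagocytosis and secretion. CD11b, the bead target, is also carried by monocytes, neutrophils and border-associated macrophages, so the sorted fraction is rich in microglia without being pure.

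The 6 libraries held 20116800 to 29480500 counts and 17887 to 20246 genes with a count, with 2.68% to 4.31% of counts from mitochondrial genes. Levels are given as CPM, counts scaled to a common total on normalised library sizes, which compare a gene between libraries and not one gene with another. Defining genes of microglia were detected with many counts in all 6 libraries: the lowest and highest levels were 9524 and 15469 CPM for Csf1r and 5156 and 8623 CPM for Cx3cr1. Among the 6, LPS replicate 3 and saline replicate 1 stood apart in their content of other cells. In LPS replicate 3 the summed level of 19 neuron markers was 969 CPM, against 80.0 and 64.7 CPM in LPS replicates 1 and 2 and 180, 144 and 390 CPM in saline. Its 16 oligodendrocyte markers summed to 1653 CPM, against 348 and 384 CPM in the other LPS libraries. In saline replicate 1 the 16 neutrophil markers summed to 1044 CPM, against 557 and 599 CPM in the other saline libraries. Calls that depend on either library are given with and without it. In bulk RNA, fewer cells of a type and less RNA per cell cannot be told apart.

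LPS changed the expression of 2039 of 17139 genes in MIA cortex, 11.9% of those tested, with 1208 higher (7.05%) and 831 lower (4.85%). Calls rest on edgeR's quasi-likelihood test with Benjamini-Hochberg adjustment over these genes, with a threshold of 0.05, and every adjusted p given comes from that test. Changes are log2 fold changes, LPS minus saline, so a value of 1 is a doubling. The standard error (SE) given with them is approximate: the size of the change divided by the square root of the test's F statistic. It is a rough guide at best where a group has almost no reads. At least a 2-fold change was seen in 546 called rises and 453 called falls, and at least an 8-fold change in 86 and 58. The median over all genes was 0.01. The libraries of both groups did not overlap for 2438 genes higher with LPS (14.2%) and 2153 lower (12.6%), which include 1179 of the called rises and 815 of the called falls. Genes called higher took 8.41%, 9.09% and 9.28% of all counts in the saline libraries and 17.9%, 18.0% and 17.8% in the LPS libraries. Genes called lower took 21.5%, 21.9% and 21.9% in saline and 11.5%, 12% and 11.5% after LPS. Those shares were chosen by the same calls and describe how much of the transcriptome moved. Without LPS replicate 3, 1202 of 17001 genes rose (7.07%) and 872 fell (5.13%), among them 1014 of the 1208 rises and 606 of the 831 falls.

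**Figure D1:**
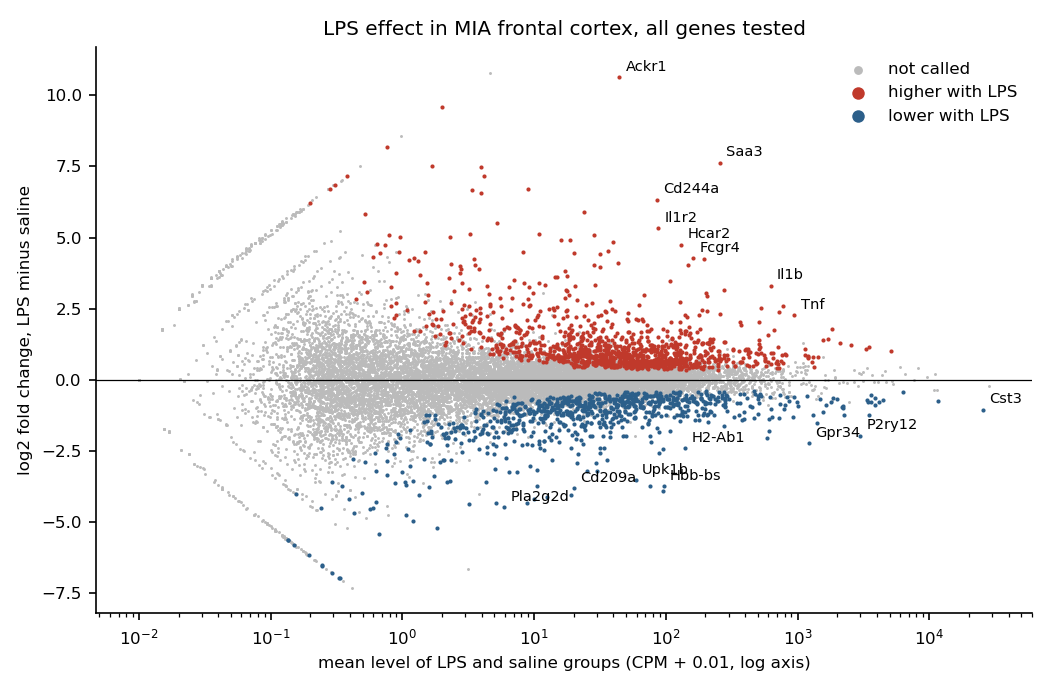
Each point is 1 of the 17139 genes tested, with the mean level of both MIA cortex groups on the horizontal axis (CPM, log axis) and the log2 fold change, LPS minus saline, on the vertical axis; red points are the 1208 genes called higher and blue points the 831 called lower. Among the genes named in the plot, Ackr1 and Saa3 have the largest rises, Pla2g2d lies among the lowest of the named falls, and Cst3 is at the far right as a fall in a gene with very many counts.

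By size, the largest rises were in genes that the saline libraries barely expressed. Ackr1 (ENSMUSG00000037872.5), a decoy receptor that binds chemokines without signalling, was measured at 66.6, 95.1 and 105 CPM in LPS replicates 1, 2 and 3 and at 0, 0.123 and 0.0326 CPM in saline. Every LPS library lay far above the saline libraries, whose few reads leave the fitted change of 10.63 (SE 0.73, adjusted p = 1.1e-08) loosely placed. Cd244a, a receptor of the SLAM family, stood at 199, 168 and 136 CPM after LPS and 2.74, 2.38 and 1.17 CPM in saline, a rise of 6.33 (SE 0.47). Hcar2, the receptor for nicotinic acid and beta-hydroxybutyrate, stood at 319, 266 and 170 CPM after LPS and 6.69, 14.6 and 6.87 CPM in saline, a rise of 4.75 (SE 0.32). In each of these 3 genes the lowest LPS library exceeded the highest saline library many times over. Which cells of the sorted fraction held this RNA was not tested. The list of 15 largest rises went on with Saa3, Serpina3n and Lrg1 (acute-phase proteins), Il1r2 and Il18rap (cytokine receptors), Cfb (complement), Acp5 (an acid phosphatase), Soat2 (cholesterol esterification), Pilrb1 and Cd300lf (immune receptors), Plet1 and Adamtsl4, with changes from 4.50 to 7.63 on the log2 scale. Pilrb1 has close relatives, so the split of its reads is uncertain.

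The largest falls included genes of blood cells and of other immune cells beside genes that microglia express. Pla2g2d, a secreted phospholipase of antigen-presenting cells, stood at 0.580, 0.152 and 0.760 CPM after LPS and 11.2, 12 and 10.7 CPM in saline, a change of -4.46 (SE 0.78). Cd209a, a lectin of monocyte-derived dendritic cells, stood at 3.29, 4.41 and 0.486 CPM after LPS and 33.3, 45.8 and 32.5 CPM in saline, a change of -3.80 (SE 0.55). Upk1b, a tetraspanin that microglia express, was at 5.71, 11.9 and 10.9 CPM after LPS and 106, 114 and 107 CPM in saline, a change of -3.52 (SE 0.23). All 3 genes were lower in every LPS library than in any saline library. The other 12 were Gkn3, Tnfrsf17, Camp, Angptl7, Igf2bp2, Mycl, Npnt, Rapsn and 4 haemoglobin genes, at -4.31 to -3.17. None of the 30 largest changes lost its call when any 1 of the 6 libraries was left out. These genes were chosen as called, without overlap between the groups, and by size of change. Their separation between groups is fixed by that choice and their steady calls follow largely from it, so both are description.

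**Figure D2:**
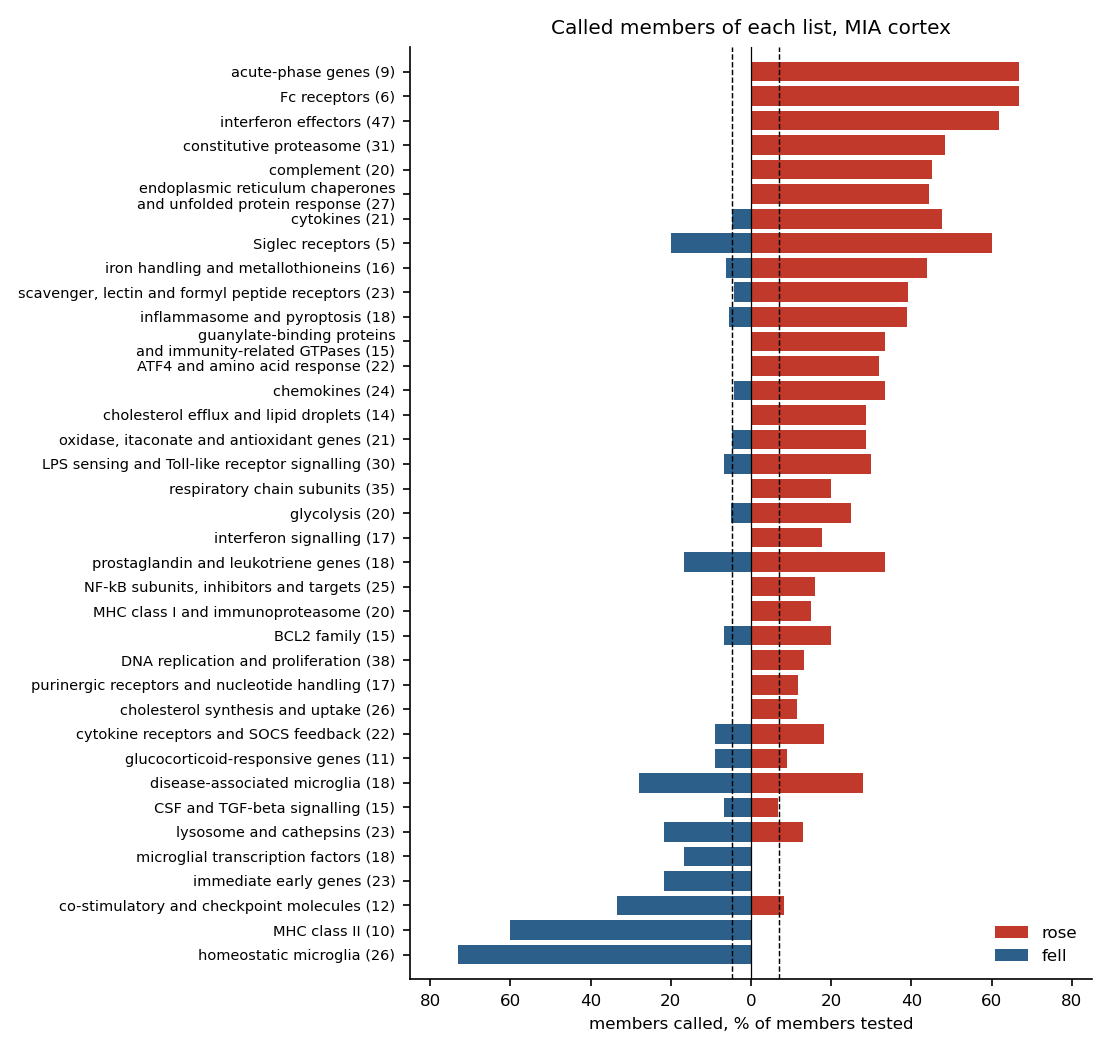
Share of the tested members of each gene list (number in parentheses) that was called after LPS in MIA cortex, with the percentage called lower drawn to the left in blue and the percentage called higher to the right in red; dashed lines mark the shares over all genes, 4.85% and 7.05%. Lists of markers of other cell types are not drawn. Among the lists drawn, acute-phase genes, Fc receptors and interferon effectors extend furthest to the right, and homeostatic microglia and MHC class II genes furthest to the left.

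The LPS receptor complex itself did not move together. Of 30 tested genes of LPS sensing and Toll-like receptor signalling, 9 rose and 2 fell, with a median change of 0.13. Cd14, the co-receptor that hands LPS to Tlr4, stood at 2618, 2783 and 2062 CPM after LPS and 890, 963 and 923 CPM in saline. The groups did not overlap and the change was 1.43 (SE 0.23, adjusted p = 0.0003). Tlr4 stood at 139, 126 and 121 CPM after LPS and 71.3, 135 and 143 CPM in saline. The groups overlapped with or without saline replicate 1, the lowest library, and the change of 0.14 (SE 0.25) missed the threshold at an adjusted p of 0.82. Tlr2, which senses bacterial lipoproteins, rose by 1.26 (SE 0.16), Tlr1, its partner, by 1.12 (SE 0.14), and the adaptor Myd88 by 0.82 (SE 0.12). Irak3, a kinase relative that damps Toll-like receptor signals, rose by 1.55 (SE 0.32). Cd180, which restrains Tlr4 in some cells, stood at 13.3, 13.6 and 26.6 CPM after LPS and 43.5, 46.5 and 35.3 CPM in saline, a change of -1.22 (SE 0.22). Ly96, the LPS-binding partner of Tlr4, was called lower at -0.59 (SE 0.18, adjusted p = 0.034), and lost the call without LPS replicate 1, LPS replicate 3, saline replicate 1 or saline replicate 2, with adjusted p of 0.092, 0.1, 0.056 and 0.16. The number of falls in the list was 1 without any of LPS replicates 1 and 3 or saline replicates 1 and 2, and 4 without saline replicate 3.

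Among 25 subunits, inhibitors and targets of NF-kB, the factor that carries the Myd88 signal to the nucleus, 4 rose and none fell, with a median of 0.41. Sod2, the mitochondrial superoxide dismutase and a classical target, stood at 172, 176 and 149 CPM after LPS and 71.6, 76.1 and 74.9 CPM in saline. Its groups lay well apart, with a change of 1.16 (SE 0.16, adjusted p = 5e-05). The other 3 called members were Tnfaip3, which ends NF-kB signals, Nfkb2 and Traf1. Each of those calls was lost without 3 or more of the 6 libraries in turn, at adjusted p from 0.059 to 0.13. The rises numbered 2 on leaving out LPS replicate 1 and 1 on leaving out LPS replicate 2, saline replicate 1 or saline replicate 3, and 1 fall was called without LPS replicate 1. Nfkbia, the inhibitor that NF-kB induces within minutes, overlapped between groups at 2810, 2550 and 1525 CPM after LPS and 2934, 2360 and 2076 CPM in saline, 18 hours after the injection.

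Of 21 cytokine genes tested, 10 rose and 1 fell, with a median change of 1.56. Il1b (ENSMUSG00000027398.13), the inflammasome-processed cytokine, stood at 1164, 1289 and 949 CPM after LPS and 106, 129 and 109 CPM in saline. The saline libraries lay close together and far below the LPS libraries, and the change was 3.31 (SE 0.24, adjusted p = 2.5e-08). Tnf (ENSMUSG00000024401.14), the prototype inflammatory cytokine, stood at 1682, 1543 and 1477 CPM after LPS and 231, 316 and 428 CPM in saline, a rise of 2.27 (SE 0.27, adjusted p = 7.9e-06). Il1a, the sister of Il1b that acts as an alarm signal, rose by 1.78 (SE 0.34). Il1rn, the natural antagonist of both, rose from 2.02, 3.16 and 1.56 CPM in saline to 25.3, 49.8 and 21.0 CPM, a change of 3.84 (SE 0.39), so that agonist and antagonist were higher in the same libraries. Tnfsf9 rose by 3.04 (SE 0.48), Il12b by 4.06 (SE 0.88), Osm by 1.56 (SE 0.24) and Csf1, a growth factor of microglia, by 1.38 (SE 0.30). Csf3, the neutrophil growth factor, was detected at 9.04, 12.7 and 1.58 CPM after LPS and at 0, 0.123 and 0 CPM in saline, too few reads for a fold. Il16 was the called fall, at -0.98 (SE 0.19). Il18 was called higher at 0.59 (SE 0.16, adjusted p = 0.021) although LPS replicate 3, at 29.8 CPM, lay within the saline range, and the call was lost without LPS replicate 1, LPS replicate 2 or saline replicate 2, with adjusted p of 0.16, 0.056 and 0.061. Il6 missed the threshold at 0.93 (SE 0.33, adjusted p = 0.08) and Il10 at -0.30 (SE 0.62). A kappaB-like motif, GGG, any 2 bases and TTTCC on either strand, was in 4 of 14 cytokine promoter windows (28.6%) and 4 of 20 of the NF-kB list (20%), against 2.04% of tested genes and 1.63% of all windows in the RefSeq table described with the interferon genes.

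Chemokine genes were higher in part. Of 24 tested, 8 rose and 1 fell, with a median of 0.96. Ccl12, a ligand of Ccr2 that draws monocytes, stood at 346, 333 and 823 CPM after LPS and 56.2, 49.5 and 62.5 CPM in saline, a rise of 3.16 (SE 0.29). Ccl5, a ligand of T cells and monocytes, stood at 36.0, 36.5 and 174 CPM after LPS and 5.93, 4.72 and 3.52 CPM in saline, a rise of 4.12 (SE 0.58). Cxcl10, the interferon-induced ligand of Cxcr3, stood at 39.0, 37.1 and 110 CPM after LPS and 14, 15.3 and 19.2 CPM in saline, a rise of 1.95 (SE 0.37, adjusted p = 0.0011). In all 3 the groups were apart, and LPS replicate 3 was higher than the other LPS libraries by a wide margin. Without it the rise was 2.93 for Ccl5 and 1.22 for Cxcl10, both still called. Ccl22, a ligand of regulatory T cells, rose by 4.03 (SE 0.68) and was lowest in LPS replicate 3. Cxcl16 rose by 0.94 (SE 0.21), and Cxcl13, a B-cell attractant almost absent from saline, was at 10.4, 9.17 and 5.04 CPM after LPS. Ccl2, the main monocyte attractant, stood at 148, 160 and 224 CPM after LPS and 64.5, 85.1 and 121 CPM in saline. Its change of 0.98 (SE 0.27, adjusted p = 0.022) did not stay called on leaving out LPS replicate 3, saline replicate 1 or saline replicate 2, at adjusted p of 0.1, 0.13 and 0.076. Ccl24, a chemokine of alternatively activated macrophages, was the fall, from 29, 44.6 and 38.4 CPM in saline to 6.48, 4.31 and 4.01 CPM, a change of -2.92 (SE 0.29). A second fall was counted without LPS replicate 3.

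**Figure D3:**
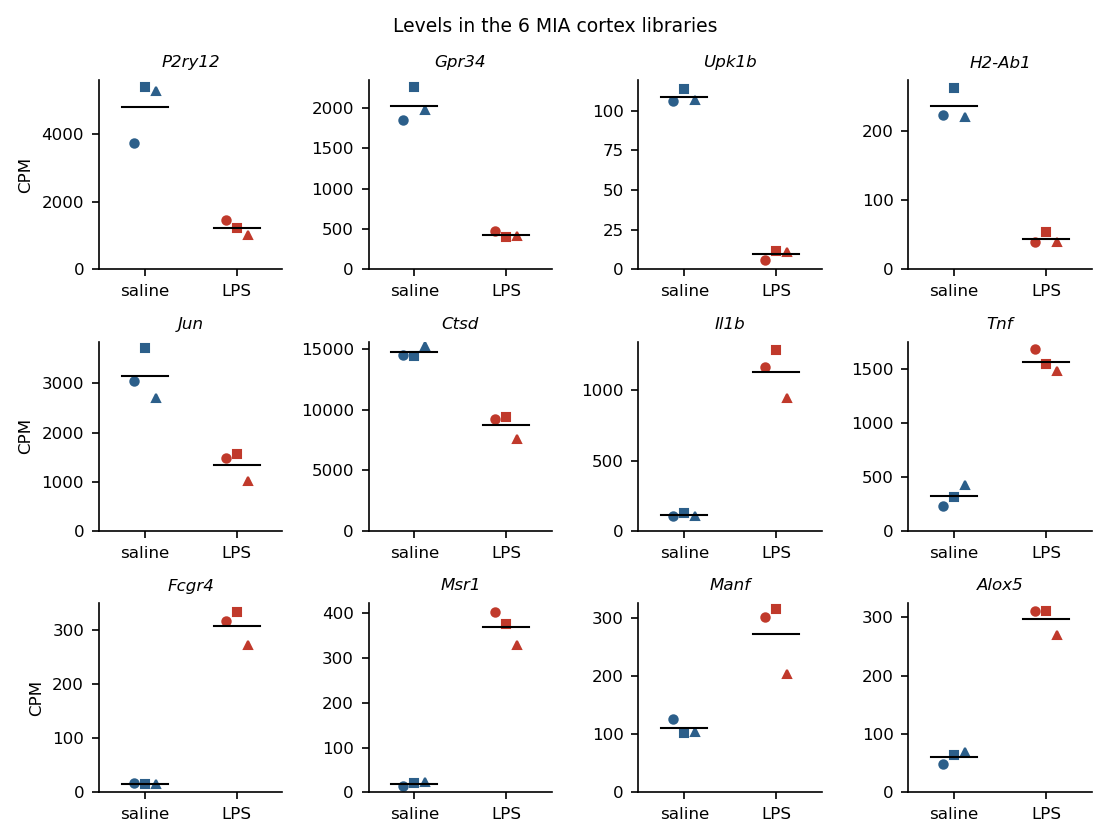
Levels in CPM of 12 genes in the 6 MIA cortex libraries, 3 saline (blue) and 3 LPS (red); circles, squares and triangles are replicates 1, 2 and 3 and the horizontal line is the mean of the group. In every panel the saline and LPS libraries are apart, with P2ry12, Gpr34, Upk1b, H2-Ab1, Jun and Ctsd lower and Il1b, Tnf, Fcgr4, Msr1, Manf and Alox5 higher after LPS.

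Receptors and brakes of these cytokines changed selectively. Of 22 cytokine receptors and SOCS genes, 4 rose (18.2%) and 2 fell (9.09%), against 7.05% and 4.85% of all genes. Il1r2, a decoy that traps interleukin-1 without signalling, stood at 220, 127 and 162 CPM after LPS and 7.41, 4.97 and 0.489 CPM in saline, a rise of 5.32 (SE 0.54). Il4ra, a receptor subunit for interleukins 4 and 13, stood at 740, 948 and 782 CPM after LPS and 162, 232 and 206 CPM in saline, a rise of 2.04 (SE 0.22), and Il18rap rose by 4.91 (SE 0.81). Il6ra fell by 0.88 (SE 0.18) on the log2 scale. The count of falls was 1 without LPS replicate 2 or any 1 of the saline libraries, because Socs1, at 1.67 to 5.39 CPM, was then not called.

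The inflammasome, which matures Il1b and Il18 and opens the membrane pore Gsdmd, was raised at its sensor. Of 18 members, 7 rose and 1 fell, and 4 rose without LPS replicate 1 or LPS replicate 2. Nlrp3, the sensor that LPS priming induces, stood at 255, 251 and 133 CPM after LPS and 50.6, 75.9 and 69.9 CPM in saline, a rise of 1.70 (SE 0.31). Casp4, which binds LPS inside the cell, rose by 1.40 (SE 0.25), and Il18bp, the inhibitor of interleukin-18, by 2.41 (SE 0.44), or 1.74 without LPS replicate 3. Nek7, a kinase needed for Nlrp3 assembly, was at 111, 113 and 111 CPM after LPS and 188, 190 and 192 CPM in saline, a change of -0.77 (SE 0.13) with almost no spread within either group.

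The values of many genes that type I interferon induces depended on 1 library. Promoters of such genes often hold the interferon-stimulated response element (ISRE), to which a complex that holds Stat2 and Irf9 binds. They are given for 3 genes from RefSeq (GRCm38.p6), as the 200 bases before the start site, 5′ to 3′ on the strand of the gene. Isg15, Ifit3 and Rsad2 are shown because an ISRE core was found in these bases. Rtp4, Irf7 and Zbp1 were searched in the same way, and no core was found for them there. Capitals mark the ISRE core searched, GAAA, any 2 bases and GAAA, on either strand. The window of Isg15 is chr4:156200819-156201018 on the minus strand, that of Ifit3 chr19:34583329-34583528 on the plus strand and that of Rsad2 chr12:26456453-26456652 on the minus strand.
Isg15: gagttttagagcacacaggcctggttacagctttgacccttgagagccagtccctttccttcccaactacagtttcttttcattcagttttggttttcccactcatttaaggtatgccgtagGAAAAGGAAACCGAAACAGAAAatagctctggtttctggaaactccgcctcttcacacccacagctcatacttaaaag
Ifit3: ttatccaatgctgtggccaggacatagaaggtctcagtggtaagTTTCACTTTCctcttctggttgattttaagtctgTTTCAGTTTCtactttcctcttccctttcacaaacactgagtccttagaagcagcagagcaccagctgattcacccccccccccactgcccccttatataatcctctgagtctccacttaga
Rsad2: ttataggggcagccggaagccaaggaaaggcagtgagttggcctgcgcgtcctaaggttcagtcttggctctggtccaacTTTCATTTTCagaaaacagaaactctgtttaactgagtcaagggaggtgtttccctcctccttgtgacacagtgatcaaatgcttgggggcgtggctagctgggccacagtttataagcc
The Isg15 window held 3 overlapping cores, beginning 78, 72 and 66 bases before the start site. The Ifit3 window held 2 on the opposite strand and the Rsad2 window 1. Of 12008 tested genes with a RefSeq promoter window of 250 bases before to 50 after the start, 3.96% held the core, against 19 of the 34 interferon effectors with a window (55.9%) and 13 of the 21 that were called (61.9%). Among called rises as a whole the share was 6.45% and among called falls 4.44%. In all 32851 windows of the table the share was 3.44%. A match is a description of letters and not a site of binding.

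Of 47 tested interferon effectors, 29 rose and none fell, with a median change of 1.45. The medians of the single libraries against the saline mean were 0.63, 0.49 and 2.45 for LPS replicates 1, 2 and 3. Isg15 (ENSMUSG00000035692.7), the ubiquitin-like protein that interferon attaches to other proteins, stood at 3.72, 4.16 and 26.5 CPM after LPS and 3.28, 3.20 and 3.00 CPM in saline. LPS replicates 1 and 2 lay barely above saline and LPS replicate 3 far above. The change of 1.87 (SE 0.51, adjusted p = 0.019) was 0.30 with an adjusted p of 0.56 without LPS replicate 3, and the call was also lost without saline replicate 1, 2 or 3, with adjusted p of 0.06, 0.06 and 0.061. Ifit3, an antiviral RNA-binding protein, stood at 16.6, 10.9 and 114 CPM after LPS and 13.6, 19.8 and 18.7 CPM in saline, and was not called (1.45, SE 0.54, adjusted p = 0.095). Rsad2, the antiviral enzyme viperin, stood at 6.43, 3.35 and 26.3 CPM after LPS and 4.17, 3.69 and 3.06 CPM in saline. Its groups overlapped, and its change of 1.74 (adjusted p = 0.018) was 0.41 with an adjusted p of 0.41 without LPS replicate 3. It was not called without saline replicate 2 or 3 either, with adjusted p of 0.055 and 0.066. Irf7, the factor that amplifies the interferon response, stood at 23.5, 16.7 and 135 CPM after LPS and 8.16, 16.7 and 7.98 CPM in saline, and its rise of 2.42 (SE 0.56, adjusted p = 0.0059) was 0.87 with an adjusted p of 0.12 without that library.

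Other effectors were higher in all 3 LPS libraries. Without LPS replicate 3, 14 effectors were called higher, with a median of 0.45 over the list, without saline replicate 1 it was 17, and with only the 6 libraries fitted it was 10. Slfn2, a regulator of immune cell quiescence, stood at 217, 209 and 271 CPM after LPS and 47.3, 43.7 and 52.2 CPM in saline, a rise of 2.28 (SE 0.18, adjusted p = 6.9e-08). Its LPS libraries lay close together. Ifitm3, which blocks viral entry, stood at 123, 141 and 449 CPM after LPS and 57.0, 50 and 47.3 CPM in saline, a rise of 2.21 (SE 0.35). Zbp1, a sensor of left-handed nucleic acid, stood at 9.86, 9.33 and 63.1 CPM after LPS and 1.81, 2.96 and 1.99 CPM in saline, a rise of 3.61 (SE 0.55), and Ifi204 rose by 2.99 (SE 0.36), with reads it may share with Ifi207. Without LPS replicate 3 these were called at 1.34 for Ifitm3, 2.08 for Zbp1 and 2.22 for Ifi204. LPS replicate 3 also held the most neuron, oligodendrocyte, astrocyte and endothelial marker RNA of the LPS libraries. Its astrocyte markers summed to 886 CPM against 387 and 460 CPM, and its endothelial and pericyte markers to 2294 CPM against 1174 and 1228 CPM. The part of these cells in the interferon values was not tested.

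**Figure D4:**
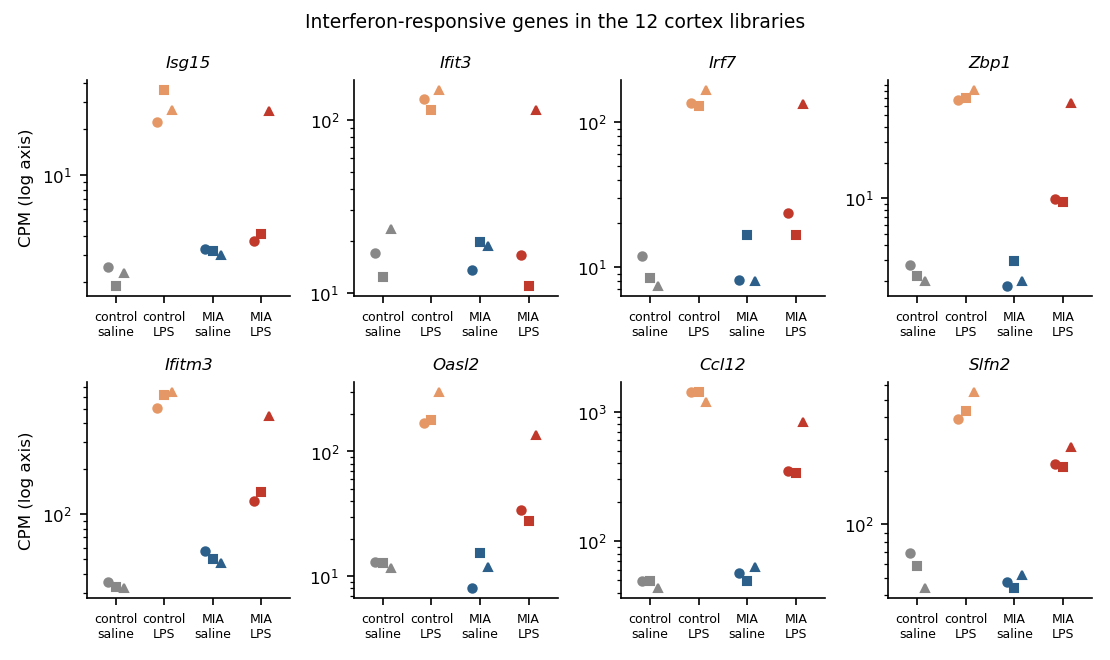
Levels of 8 interferon-responsive genes in CPM (log axis) in the 12 cortex libraries, with 3 libraries (circle, square and triangle for replicates 1, 2 and 3) in each of control saline, control LPS, MIA saline and MIA LPS. Among the MIA LPS libraries the triangle, replicate 3, is the highest in every panel, by a wide margin in Isg15, Ifit3, Irf7 and Zbp1 and by a small one in Slfn2.

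Guanylate-binding proteins and immunity-related GTPases, which attack vacuoles that hold microbes, had 5 rises and no fall among 15 members, but 1 rise without LPS replicate 3 and 2 without saline replicate 1. Gbp7 was the exception to that dependence, at 268, 261 and 311 CPM after LPS and 65.5, 91.0 and 89.2 CPM in saline, a rise of 1.77 (SE 0.22). Of 17 genes of interferon signalling 3 rose and none fell, against 1 rise without LPS replicate 3 and 1 fall without saline replicate 1. That 1 was Stat3, the factor downstream of interleukin-6 family receptors, which stood at 476, 505 and 333 CPM after LPS and 177, 241 and 202 CPM in saline, a rise of 1.08 (SE 0.17).

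Among genes of antigen presentation, those of class II had falls and those of class I few calls. MHC class II genes, which present peptides to helper T cells, were lower: 6 of 10 fell and none rose, with a median of -1.44. H2-Ab1 (ENSMUSG00000073421.6), the beta chain of I-A, stood at 40.3, 54.7 and 39.2 CPM after LPS and 224, 263 and 221 CPM in saline, a change of -2.40 (SE 0.41). H2-Eb1, the beta chain of I-E, stood at 24.7, 36.1 and 16.3 CPM after LPS and 153, 182 and 121 CPM in saline, a change of -2.57 (SE 0.39), and H2-Aa, the alpha chain of I-A, fell by 2.43 (SE 0.37) on the log2 scale. Each was lower in all LPS libraries than in any saline library. H2-Ob, a modulator of peptide loading, fell by 1.66 (SE 0.20). Cd74, the invariant chain, was called lower at -1.22 (SE 0.32, adjusted p = 0.016), and leaving out LPS replicate 1 or saline replicate 2 ended the call, at adjusted p of 0.058 and 0.068. MHC class II genes are also those of dendritic cells, B cells and border-associated macrophages. The summed level of the lymphocyte and dendritic cell markers was lower after LPS as well, at 130, 141 and 260 CPM against 532, 479 and 394 CPM in saline. Most of that sum was 1 gene, Ighm, and the median change of the list was 0.48. Of the 14 tested members of that list 2 rose and 2 fell, 14.3% each way, against 7.05% and 4.85% of all genes. There was no rise without LPS replicate 3, saline replicate 1 or saline replicate 3, and 1 without saline replicate 2. Ighm, the heavy chain of immunoglobulin M, stood at 94.0, 102 and 215 CPM after LPS and 486, 426 and 340 CPM in saline, a change of -1.61 (SE 0.27). The part of those cells in the MHC class II values was not tested. H2 genes are near-identical in places, so the split of their reads is uncertain.

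MHC class I and immunoproteasome genes, which present peptides of the cell itself, had 3 rises and no fall among 20, with 1 rise without saline replicate 2 or 3 and 1 fall without LPS replicate 3. Psme2, a proteasome activator subunit, stood at 126, 144 and 166 CPM after LPS and 102, 76.3 and 85.6 CPM in saline, a rise of 0.72 (SE 0.15). Among 12 co-stimulatory and checkpoint molecules 1 rose (8.33%) and 4 fell (33.3%), against 7.05% and 4.85% of all genes. The falls numbered 2 without LPS replicate 1, LPS replicate 3 or saline replicate 2. Sirpa, the receptor of the signal that spares cells from phagocytosis, stood at 997, 1024 and 932 CPM after LPS and 1996, 2367 and 2059 CPM in saline, a change of -1.12 (SE 0.14), and Lag3, a checkpoint receptor, fell by 0.86 (SE 0.15). Cd40 was the called rise, at 1.31, 4.61 and 5.65 CPM after LPS and 1.47, 0.410 and 1.04 CPM in saline. Its call ended on leaving out LPS replicate 2, LPS replicate 3, saline replicate 2 or saline replicate 3, with adjusted p of 0.11, 0.13, 0.15 and 0.085.

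Of 6 Fc receptor genes, which bind the tails of antibodies, 4 rose and none fell, with a median of 0.94. Fcgr4 (ENSMUSG00000059089.4), an activating receptor, stood at 315, 333 and 272 CPM after LPS and 16.6, 16.2 and 15.1 CPM in saline. Both groups were tight and far apart, and the change was 4.27 (SE 0.19, adjusted p = 2.2e-11). Fcgr3 stood at 6018, 5443 and 3008 CPM after LPS and 1892, 2116 and 2496 CPM in saline, a rise of 1.15 (SE 0.21). The inhibitory receptor Fcgr2b rose by 0.95 (SE 0.17) and Fcgr1 by 0.92 (SE 0.14), so receptors of both signs were higher. Of 23 scavenger, lectin and formyl peptide receptors 9 rose and 1 fell. Msr1 (ENSMUSG00000025044.16), the scavenger receptor for modified lipoproteins, stood at 404, 376 and 329 CPM after LPS and 14.8, 20.8 and 22.2 CPM in saline, a rise of 4.26 (SE 0.29, adjusted p = 1.1e-08). Clec4e and Clec4d, paired lectins for microbial glycolipids, rose by 3.26 (SE 0.65) and 3.33 (SE 0.58), and Fpr1, the receptor for bacterial formyl peptides, by 2.57 (SE 0.48). Cd36, a fatty acid and lipoprotein receptor, was the fall, at -1.37 (SE 0.34), and a second fall, Axl, was counted without LPS replicate 3. Of 5 Siglec genes, whose proteins bind sialic acid, Siglec1 rose by 2.64 (SE 0.41), Siglece by 1.41 (SE 0.26) and Siglecf by 0.87 (SE 0.16). Cd22 was called lower at -1.17 (SE 0.33, adjusted p = 0.025), a call that ended on leaving out LPS replicate 1, saline replicate 2 or saline replicate 3, at adjusted p of 0.12, 0.068 and 0.083.

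Complement genes had 9 rises and no fall among 20, with a median of 0.51, and 5 rises without LPS replicate 2. C5ar1, the receptor for the chemotactic fragment C5a, stood at 1371, 1262 and 1014 CPM after LPS and 140, 253 and 305 CPM in saline, a rise of 2.39 (SE 0.36). Cfb, the protease of the alternative pathway, stood at 22.7, 19.9 and 50.3 CPM after LPS and 0.337, 1.97 and 0.749 CPM in saline, a rise of 4.93 (SE 0.57). Cd55, which protects host cells by splitting the convertase, rose by 3.65 (SE 0.43), and C4b by 1.94 (SE 0.38). C3, the component that both pathways cleave, was called at 1.81 (SE 0.46, adjusted p = 0.012) and lost the call without LPS replicate 2 (adjusted p = 0.061). C1qa, the recognition chain that microglia make in quantity, missed the threshold at 0.44 (SE 0.16, adjusted p = 0.075).

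Of 26 homeostatic genes of microglia tested, 19 fell and none rose, with a median of -0.73, and 12 fell without saline replicate 2. P2ry12 (ENSMUSG00000036353.13), the ADP receptor that guides microglial processes, stood at 1463, 1206 and 1005 CPM after LPS and 3713, 5361 and 5266 CPM in saline. The groups were apart, with a change of -1.96 (SE 0.18, adjusted p = 3.2e-07). Gpr34 (ENSMUSG00000040229.11), a lysophosphatidylserine receptor, stood at 478, 399 and 415 CPM after LPS and 1845, 2254 and 1974 CPM in saline, a change of -2.23 (SE 0.12, adjusted p = 6.2e-10). Siglech, a lectin of microglia, fell by 1.5 (SE 0.16), and Slc2a5, the fructose transporter, by 1.79 (SE 0.25). Tmem119, a membrane protein used to mark microglia, moved less, at 2899, 2947 and 2238 CPM after LPS and 3941, 4778 and 5073 CPM in saline. Its fall of -0.77 (SE 0.22, adjusted p = 0.023) did not stay called on leaving out LPS replicate 3, saline replicate 2 or saline replicate 3, at adjusted p of 0.074, 0.076 and 0.1. Cx3cr1, the fractalkine receptor, stood at 5156, 5545 and 5523 CPM after LPS and 6635, 8623 and 6750 CPM in saline, a change of -0.44 (SE 0.14, adjusted p = 0.047). That call was lost in 5 of the 6 analyses with 1 library left out, at adjusted p of up to 0.32, and held without saline replicate 1. Csf1r overlapped between groups (-0.37, SE 0.21, adjusted p = 0.32), as did P2ry13. Among the called genes named here, the change thus ran from -2.23 (SE 0.12) in Gpr34 to -0.44 (SE 0.14) in Cx3cr1.

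Of 18 transcription factors of microglia, Sall1, which maintains their identity, stood at 124, 116 and 133 CPM after LPS and 338, 285 and 246 CPM in saline, a change of -1.22 (SE 0.18). Mef2c fell by 0.65 (SE 0.12), and the last called fall, Irf8, held in none of the analyses without LPS replicate 1, LPS replicate 2 or any 1 saline library, at adjusted p of 0.12, 0.19, 0.076, 0.23 and 0.12. None of the list rose.

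Genes of the disease-associated state of microglia divided, with 5 rises and 5 falls among 18. Trem2, the lipid receptor of that state, stood at 529, 580 and 490 CPM after LPS and 1632, 1245 and 1108 CPM in saline, a change of -1.32 (SE 0.15). Apoe, a lipid carrier, fell by 0.94 (SE 0.21), Cd9, a tetraspanin, by 1.29 (SE 0.11) and Igf1, a growth factor, by 1.23 (SE 0.25). Spp1, osteopontin, stood at 154, 157 and 276 CPM after LPS and 14.4, 22.7 and 16.4 CPM in saline, a rise of 3.46 (SE 0.34). Cd63, a tetraspanin of late endosomes, rose by 1.57 (SE 0.14), Cst7, a cysteine protease inhibitor, by 1.68 (SE 0.21) and Lilrb4a, an inhibitory receptor, by 1.99 (SE 0.31).

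The lysosome list was also divided, with 3 rises and 5 falls of 23. Cst3, the secreted inhibitor of cathepsins, stood at 16798, 18154 and 15279 CPM after LPS and 44188, 29304 and 30549 CPM in saline, a change of -1.05 (SE 0.16). Ctsd, an aspartic protease, stood at 9224, 9386 and 7571 CPM after LPS and 14544, 14410 and 15251 CPM in saline, a change of -0.76 (SE 0.15). Ctsl, a cysteine protease, stood at 3239, 3148 and 2565 CPM after LPS and 1337, 1279 and 1074 CPM in saline, a rise of 1.28 (SE 0.15). Ctsc, which activates serine proteases, rose by 1.41 (SE 0.26) and Ctsh by 0.68 (SE 0.11). Psap and Hexa, which serve sphingolipid breakdown, fell by 0.90 (SE 0.13) and 0.91 (SE 0.15).

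Genes of protein folding in the endoplasmic reticulum had 12 rises and no fall among 27, with a median of 0.80. The promoters of Hspa5 and Creld2 are shown in the same form as above, because both genes were called and hold the endoplasmic reticulum stress element, a site read by Atf6 with NF-Y. Capitals mark CCAAT, any 9 bases and CCACG, on either strand. The Hspa5 window is chr2:34771890-34772089 and the Creld2 window chr15:88819446-88819645 (GRCm38.p6, plus strand).
Hspa5: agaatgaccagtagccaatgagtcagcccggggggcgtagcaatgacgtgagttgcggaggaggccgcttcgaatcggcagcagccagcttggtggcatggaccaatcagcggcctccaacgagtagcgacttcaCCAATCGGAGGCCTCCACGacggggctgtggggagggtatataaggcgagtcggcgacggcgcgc
Creld2: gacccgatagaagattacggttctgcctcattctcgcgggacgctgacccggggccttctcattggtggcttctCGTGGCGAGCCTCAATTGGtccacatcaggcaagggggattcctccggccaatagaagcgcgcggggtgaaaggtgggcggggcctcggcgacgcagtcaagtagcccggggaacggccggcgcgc
The element began 65 bases before the start site in Hspa5 and, on the opposite strand, 126 bases before it in Creld2. It was present in 18 of 12008 tested genes with a window (0.150%), in 9 of 23 of the list (39.1%) and in 6 of its 9 called members with a window (66.7%). Of all windows in the table, 0.119% held it.

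Creld2, a secreted chaperone, stood at 107, 107 and 109 CPM after LPS and 51.4, 43.3 and 49.0 CPM in saline, a rise of 1.17 (SE 0.24). Manf (ENSMUSG00000032575.16), a stress-induced trophic factor, stood at 301, 315 and 203 CPM after LPS and 126, 102 and 104 CPM in saline, a rise of 1.30 (SE 0.18, adjusted p = 4.1e-05). Sdf2l1, a co-chaperone of Hspa5, rose by 1.44 (SE 0.27) and Dnajb11 by 1.15 (SE 0.21). Hspa5 itself, the main chaperone BiP, stood at 4485, 4304 and 1933 CPM after LPS and 1435, 1747 and 1360 CPM in saline. LPS replicate 3 lay just above the saline libraries, and the change of 1.24 (SE 0.33, adjusted p = 0.016) did not stay called on leaving out LPS replicate 1, LPS replicate 2 or saline replicate 1, with adjusted p of 0.079, 0.073 and 0.062. The related response that runs through Atf4 to amino acid and one-carbon genes had 7 rises and no fall among 22. Psat1, an enzyme of serine synthesis, stood at 164, 189 and 175 CPM after LPS and 51.0, 39.5 and 38.4 CPM in saline, a rise of 2.04 (SE 0.16). Mthfd2, the mitochondrial folate enzyme, stood at 49.3, 47.7 and 99.5 CPM after LPS and 10.3, 10.6 and 7.82 CPM in saline, a rise of 2.78 (SE 0.40), and Shmt2 rose by 1.43 (SE 0.17). The C/EBP-ATF response element, TGATGNAAN on either strand, was in 8 of 20 promoter windows of this list (40.0%) in 2.86% of tested genes and in 3.95% of all windows.

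The constitutive proteasome had 15 rises and no fall among 31, with a median of 0.46, and 8 rises without LPS replicate 1, without LPS replicate 2 or with no filter on low counts, and 4 with only the 6 libraries fitted. Psmd14, the lid enzyme that removes ubiquitin, rose by 0.97 (SE 0.15), from 52.5, 65.0 and 56.1 CPM in saline to 120, 125 and 95.1 CPM. Respiratory chain subunits had 7 rises among 35, and 4 without LPS replicate 2, saline replicate 2 or saline replicate 3. Cycs, cytochrome c, rose by 0.98 (SE 0.14). Of 20 glycolysis genes 5 rose, among them Ldha, which makes lactate, by 1.03 (SE 0.11) and Pfkfb3, which sets glycolytic rate, by 1.32 (SE 0.28), and 1 fell, Hk3, a call that was lost without LPS replicate 1, saline replicate 2 or saline replicate 3, with adjusted p of 0.086, 0.094 and 0.079. Over all genes 7.05% rose. Cholesterol synthesis and uptake had 3 rises among 26 (11.5%), and cholesterol efflux and lipid droplets 4 among 14 (28.6%). The latter list was led by Ch25h, the 25-hydroxylase, at 12.1, 17.0 and 16.5 CPM after LPS and 2.31, 1.56 and 0.521 CPM in saline. Replication and proliferation genes had 5 rises among 38 (13.2%), and 2 or 3 without any 1 library other than saline replicate 3, with Mcm2 at 1.61 (SE 0.39).

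Enzymes of lipid mediators changed in opposite directions along 1 pathway. Of 18 prostaglandin and leukotriene genes 6 rose and 3 fell. Ptgs2, the inducible cyclooxygenase, stood at 221, 231 and 211 CPM after LPS and 26.0, 38.4 and 35.7 CPM in saline, a rise of 2.73 (SE 0.36). Alox5 (ENSMUSG00000025701.12), which starts leukotriene synthesis, stood at 311, 310 and 270 CPM after LPS and 49.4, 64.6 and 69.5 CPM in saline, a rise of 2.28 (SE 0.16, adjusted p = 1.1e-08), and its partner Alox5ap rose by 0.99 (SE 0.13). Hpgd, which degrades prostaglandins, stood at 198, 178 and 173 CPM after LPS and 398, 421 and 368 CPM in saline, a change of -1.11 (SE 0.20), and Ptger3, a receptor for prostaglandin E2, fell by 2.25 (SE 0.26).

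Iron genes had 7 rises and 1 fall among 16. Slc40a1, ferroportin, the only known iron exporter, stood at 138, 123 and 68.8 CPM after LPS and 220, 342 and 357 CPM in saline, a change of -1.48 (SE 0.24). Slc39a14, an importer of iron and zinc, stood at 25.6, 33.6 and 35.0 CPM after LPS and 4.92, 2.63 and 2.93 CPM in saline, a rise of 3.17 (SE 0.33). Fth1, the ferritin heavy chain that stores iron, rose by 1.08 (SE 0.16), and Cp, which oxidises iron for transport, by 1.73 (SE 0.24). Of 21 oxidase, itaconate and antioxidant genes 6 rose and 1 fell, with Acod1, which makes itaconate, at 10.0, 16.0 and 8.69 CPM after LPS and 1.47, 2.22 and 0 CPM in saline, and the thioredoxin reductase Txnrd1 higher by 0.99 (SE 0.19). The fall, Cat, was not called without saline replicate 2 (adjusted p = 0.071). In the BCL2 family 3 genes rose and 1 fell among 15: Bcl2a1a rose by 2.35 (SE 0.24), with reads that may be shared with its near copies Bcl2a1b and Bcl2a1d, the other rises, and the death gene Bcl2l11 fell by 1.04 (SE 0.19). Csf2rb, the shared receptor chain for GM-CSF, rose by 1.68 (SE 0.19), and Eng, a co-receptor of TGF-beta, fell by 0.81 (SE 0.17). They were the called members of 15 genes of CSF and TGF-beta signalling, 6.67% in each direction against 7.05% and 4.85% of all genes. A second fall was counted in that list without LPS replicate 3 and in the fit with the replicate number as a block.

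Of 23 immediate early genes, which respond within minutes to stimulation and to tissue dissociation, 5 fell and none rose, with a median of -0.73, and 18 did not pass. Jun (ENSMUSG00000052684.4) stood at 1474, 1559 and 1006 CPM after LPS and 3046, 3719 and 2713 CPM in saline, a change of -1.23 (SE 0.20, adjusted p = 0.00031). Junb fell by 0.79 (SE 0.16) and Egr1 by 0.98 (SE 0.20). Fos was called lower at -0.78 (SE 0.23, adjusted p = 0.031) a call that ended on leaving out LPS replicate 3, saline replicate 1 or saline replicate 2, at adjusted p of 0.1, 0.072 and 0.12. The list had 3 falls without LPS replicate 3 or saline replicate 2, and 8 falls and 1 rise with the replicate number as a block. Of 11 glucocorticoid-responsive genes Sgk1 was called lower and Cdkn1a higher, 9.09% each way, against 4.85% and 7.05% of all genes. Each call was lost in at least 4 of the 6 analyses with 1 library left out. Of 17 purinergic receptors and nucleotide enzymes 2 rose (11.8%, against 7.05% of all genes). P2ry2, a receptor for ATP and UTP, went from 1.98, 2.38 and 1.30 CPM in saline to 19, 22.2 and 18.5 CPM, a rise of 3.40 (SE 0.53).

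Of 9 tested acute-phase genes 6 rose, with a median of 4.05. Saa3, a serum amyloid made by macrophages and other cells, stood at 412, 555 and 578 CPM after LPS and 7.62, 0.369 and 0 CPM in saline, a rise of 7.63 (SE 1.25), with the largest SE among the 30 largest changes. Without saline replicate 1, the only saline library with more than traces, the fitted change was 11.53. Lcn2, which binds bacterial siderophores, stood at 209, 319 and 311 CPM after LPS and 35.6, 7.92 and 7.49 CPM in saline, a rise of 4.04 (SE 0.62), and was highest among saline libraries in replicate 1, the one with the most neutrophil RNA, without which the change was 5.16. Of 16 neutrophil markers 1 rose (6.25%) and 2 fell (12.5%), against 7.05% and 4.85% of all genes. S100a8, a calcium-binding protein of neutrophils and monocytes, overlapped at 128, 213 and 113 CPM after LPS and 235, 47.6 and 81.7 CPM in saline. Camp, an antimicrobial peptide of neutrophil granules, fell from 44.9, 9.52 and 16.8 CPM to 1.98, 1.42 and 0.729 CPM (-4.12, SE 0.73, and -3.31 without saline replicate 1), and Cxcr2, their chemokine receptor, rose by 2.85 (SE 0.55). Ltf, the other fall, did not stay called on leaving out LPS replicate 2, LPS replicate 3 or saline replicate 1, with adjusted p of 0.074, 0.078 and 0.1.

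Of 16 monocyte markers 5 rose and 1, Crip1, fell, a call lost without LPS replicate 1, LPS replicate 2, saline replicate 1 or saline replicate 2, with adjusted p of 0.092, 0.079, 0.12 and 0.074. The list summed to 716, 876 and 581 CPM after LPS and 341, 389 and 446 CPM in saline. Ms4a4c rose by 2.89 (SE 0.36), while Ccr2 overlapped at 5.61, 10.8 and 8.08 CPM after LPS and 10.1, 11.5 and 17.0 CPM in saline. Border-associated macrophage markers summed to 664 to 1401 CPM after LPS and 946 to 1132 CPM in saline. They had 1 call among 11, Pf4 lower (9.09%, against 4.85% of all genes). The Pf4 call held only without LPS replicate 2 among the 6 analyses with 1 library left out, and without saline replicate 1 the fall counted was Mrc1, named after its values were seen. Among 24 endothelial and pericyte markers 2 rose (8.33%) and 1 fell (4.17%), near the 7.05% and 4.85% of all genes. Rises numbered 1 without any 1 library other than LPS replicate 1, and falls 0 without LPS replicate 1 or 2 and 2 without LPS replicate 3 or saline replicate 3. Ly6a, which interferon also induces, stood at 156, 182 and 371 CPM after LPS and 83.9, 61.8 and 51.3 CPM in saline, a rise of 1.85 (SE 0.40). No neuron, oligodendrocyte or astrocyte marker was called, and without LPS replicate 3, the library richest in them, 5 of 19 neuron markers were called lower. All 4 haemoglobin genes fell. Hbb-bs stood at 15.9, 14 and 10.4 CPM after LPS and 338, 26.5 and 171 CPM in saline, a change of -3.74 (SE 0.76) and of -2.93 without saline replicate 1, with saline libraries that differed from each other more than the lowest differed from LPS. Their reads are shared among near copies. The part of these cell types in the changes of the other lists was not tested.

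**Figure D5:**
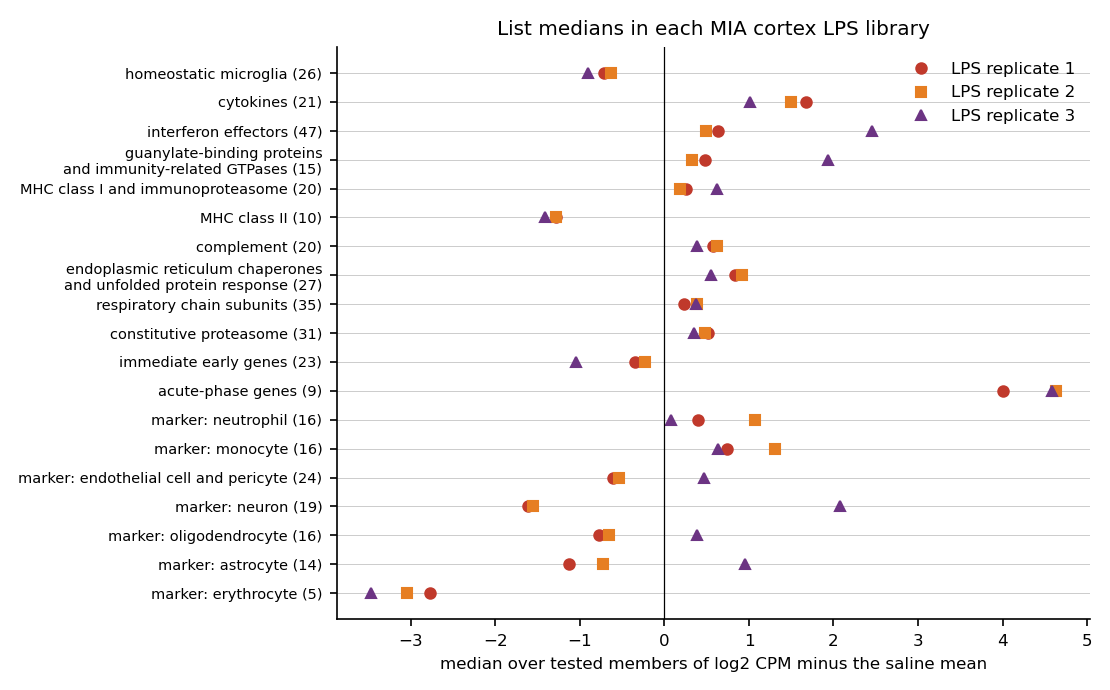
Median over the tested members of each list (number in parentheses) of log2 CPM in 1 MIA cortex LPS library minus the mean of the 3 saline libraries, for LPS replicates 1 (circles), 2 (squares) and 3 (triangles). Replicate 3 lies apart for interferon effectors (2.45 against 0.63 and 0.49) and for neuron, oligodendrocyte, astrocyte and endothelial markers, and close to the others for homeostatic, MHC class II and complement genes.

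The same contrast in control mice is the most similar comparison, with 3 LPS and 3 saline libraries from cortex of males whose dams had no immune activation, and it asks whether the prenatal history altered the response. It shared no library with the MIA comparison. There 1871 genes rose (10.9%) and 1243 fell (7.25%). The difference of both responses was called for 0 of 17139 genes (0%) by edgeR's quasi-likelihood test (smallest adjusted p = 0.79), while 744 genes had an unadjusted p under 0.05, with the MIA change lower in 455 and higher in 289. DESeq2 called 1 gene lower in MIA and none higher. Litters were not given, so the prenatal history and the litter cannot be told apart.

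Side by side, interferon effectors had 29 rises and a median of 1.45 in MIA cortex and 45 rises and a median of 2.81 in control cortex. Over all genes tested, 7.05% rose in MIA cortex and 10.9% in control cortex. MHC class I and immunoproteasome genes had 3 and 15 rises, with medians of 0.40 and 1.02. Respiratory chain subunits had 7 and 22 (medians 0.29 and 0.61), and chemokines 8 and 16 (0.96 and 2.02). Medians were closer for the constitutive proteasome, with 15 and 25 rises (0.46 and 0.57), and for NF-kB genes, with 4 and 11 (0.41 and 0.66). Counts were close for cytokines, with 10 and 11 rises, for endoplasmic reticulum genes, with 12 and 12, and for Fc receptors, with 4 and 5. Markers of other cells also had different counts: neutrophil markers had 1 and 7 rises, with medians of 0.33 and 1.96, and monocyte markers 5 and 9, with medians of 0.92 and 2.0. Without MIA saline replicate 1, the library with the most neutrophil RNA in saline, the MIA medians were 1.23 for neutrophil and 1.15 for monocyte markers. The MIA rises then still numbered 1 and 5. The MIA change was lower at an unadjusted p under 0.05 in 6 of 16 neutrophil, 5 of 16 monocyte and 5 of 5 erythrocyte markers, and their part in the other differences was not tested. MHC class II had 6 falls in MIA and 5 in control, with medians of -1.44 and -0.43, and homeostatic genes had 19 and 23 falls, with medians of -0.73 and -1.01. These counts compare calls, and the test of the difference called none of these members. Of the 47 interferon effectors, 24 had a lower MIA change at an unadjusted p under 0.05, and of the 20 MHC class I genes 13 did. Over all 17139 genes tested, 455 did.

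The difference rested on which LPS libraries entered. Without MIA cortex LPS replicate 3, 35 of 17001 genes (0.206%) were called, 34 of them with a smaller change in MIA cortex. Of the 34, 24 belonged to the interferon effector, interferon signalling or guanylate-binding protein lists. These 34 genes were picked by a smaller change in MIA cortex without LPS replicate 3. The order of their libraries follows largely from that choice and is given as description. In all 34 genes, LPS replicates 1 and 2 lay below the range of the 3 control LPS libraries. LPS replicate 3 lay above both of them in all 34, and within or above the control range in 9. Isg15 showed this at 22.2, 36.2 and 26.9 CPM in control LPS, against 3.72, 4.16 and 26.5 CPM in MIA LPS. Its difference was -1.80 (SE 0.71) with all libraries and -3.35 (SE 0.41, adjusted p = 0.00031) without LPS replicate 3. Ccl12 stood at 1407, 1413 and 1175 CPM in control LPS and 346, 333 and 823 CPM in MIA LPS, with a difference of -1.67 (SE 0.38, adjusted p = 0.9) with all libraries and -2.22 (SE 0.28, adjusted p = 0.00038) without replicate 3. Ifitm3 stood at 508, 617 and 646 CPM in control LPS and 123, 141 and 449 CPM in MIA LPS, with a difference of -1.93 (SE 0.48, adjusted p = 0.9) with all libraries and -2.77 (SE 0.30, adjusted p = 0.00018) without it. In those 2 genes LPS replicate 3 was also below every control LPS library. Whether the neuron and glia RNA of LPS replicate 3 bears on the interferon values was not tested.

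The striatum of MIA mice gave 1188 rises (6.93%) and 567 falls (3.31%), from 2 LPS and 3 saline libraries, since the title of LPS replicate 3 marks it as excluded. The difference between regions was called for 0 of 17139 genes (0%) by edgeR (smallest adjusted p = 0.37) and for 2 higher and 4 lower in cortex by DESeq2, and 478 had an unadjusted p under 0.05, with the cortex change lower in 226 and higher in 252. Interferon effectors had 13 rises and a median of 0.64 in striatum, and MHC class II genes 2 falls and a median of -0.20. Isg15 stood at 4.4 and 5.06 CPM in the striatum LPS libraries and at 3.23, 3.55 and 4.19 CPM in saline. These levels are near those of MIA cortex LPS replicates 1 and 2, and LPS replicate 3 of MIA cortex, at 26.5 CPM, was above all of them.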

How the data were processed

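RNA of CD11b-sorted cells was made into oligo-dT primed Smart-Seq2 type libraries, per the labels. The deposited table holds 1 expected count per gene and library, made by the authors with STAR and RSEM, and DESeq2 was also used, per the submitters' processing notes. Tool versions and the genome build are not given in the sources used here, and strand is not stated. RSEM splits reads among near-identical genes. Of all values 6.92% were not whole, and they were rounded. Symbols matched 55141 of 55487 identifiers.

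Groups came from the labels. Of 24 libraries, 23 entered the fit, since the title of 1 MIA striatum LPS library, replicate 3, says the submitters excluded it. In R 4.3.3, edgeR 4.0.16 (filterByExpr, minimum count 10 and minimum total 15; TMM; 1 term per group; 15 residual degrees of freedom) gave two-sided quasi-likelihood p-values with Benjamini-Hochberg adjustment over 17139 genes, and genes were called under 0.05. List medians per library used log2 CPM with a prior count of 2. The total per library, 19453300 to 29480500, sets the counting precision. Counts were also simulated for this comparison (16614 genes), with 98 genes changed by 1 and 98 by 2 on the log2 scale. Of these, 28.6% and 49% were called, with 2 false calls.

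The comparison, its 46 gene lists (893 genes tested of 911) and their tests were chosen with earlier results of these data known. Lists are described by counts and medians, with no list test. Named genes were the 15 largest called rises and falls (higher group averaging 10 CPM or more, libraries of both groups not overlapping, predicted names passed over), up to 4 called members of each list by smallest adjusted p, 10 genes of interest, the largest called differences between responses, and further members that account for a list. Some genes that these rules name are not reported here. Same-numbered LPS and saline libraries of MIA cortex deviated together (correlations of 0.143, 0.124 and 0.315), so their numbers were taken as pairs, from the data and not from the labels. In control cortex the same correlations were 0.0342, 0.102 and 0.144, and the block used the number in every group. Correlations between libraries of different numbers were not computed, so these values cannot show that the pairs are real. Alternatives were DESeq2 1.42.0, RLE scaling, no filter, the excluded library added, only the 6 libraries, the replicate block, each library left out in turn and, chosen after seeing the data, LPS replicate 3 and saline replicate 1 both left out.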

Additional observations from a re-analysis of the deposited data

How the results depend on the processing

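The 1208 genes higher and 831 lower after LPS were within 1.5 times those counts under DESeq2 (1535 and 1166), RLE scaling (1171 and 874), no filter (1003 and 695), the excluded library added (886 and 585), the replicate block (1361 and 953) and both libraries that stand apart left out (1036 and 744, chosen after seeing the data). With only the 6 libraries of the comparison they were 625 and 522, over 14500 genes tested. Leaving out each library in turn gave 827 to 1202 higher and 532 to 872 lower, with 532 lower without saline replicate 2. Of the rises 632, and of the falls 402, were called in all 6 of these analyses. The replicate block changed no call of the 182 named genes checked, and DESeq2 and RLE scaling lost none. By contrast, 14 to 21 were lost without any 1 library, 16 with the excluded library added, 4 with no filter and 30 with only the 6 libraries. Of the 182, 140 were not lost in any setting. Tlr4, not called, ranged from -0.15 to 0.35 with 1 library left out, with -0.15 without saline replicate 1 (adjusted p = 0.81), and was -0.09 with both libraries left out (adjusted p = 0.87).

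For MIA minus control cortex, where no gene was called, the alternatives gave 1 lower with DESeq2, 2 lower with no filter, and 1 higher and 33 lower with both libraries left out. Leaving out 1 library in turn gave 0 to 1 higher and 0 to 34 lower, with 1 lower without saline replicate 3. For MIA cortex minus MIA striatum they gave 2 higher and 4 lower with DESeq2, 1 higher and 6 lower with no filter, 1 higher with the replicate block that pairs cortex and striatum libraries of the same group and number, which the labels do not tie to 1 animal, and 0 to 1 lower with 1 library left out. Among lists with more than 3 calls in 1 direction, fitting only the 6 libraries gave 10 rises against 29 in interferon effectors, 4 against 15 in the constitutive proteasome, 3 against 7 in the inflammasome, 2 against 7 in the respiratory chain, 2 against 6 in oxidase and antioxidant genes, 3 against 5 in replication and 1 against 5 in guanylate-binding proteins, and 2 falls against 4 in co-stimulatory genes. With no filter rises were 8 in the proteasome, 4 in the inflammasome and 8 in guanylate-binding proteins. With DESeq2 rises were 8 in guanylate-binding proteins, 12 in the respiratory chain and 9 in replication, and immediate early genes had 8 falls. Why these counts moved was not tested beyond the change of samples or genes that each alternative makes. With 3 libraries a group, changes may have been missed. In the simulation 28.6% of genes changed by 1 and 49% of those changed by 2 on the log2 scale were called. It changed only 98 genes at each size of 16614, a far smaller share than was called here. Its threshold was therefore stricter, depth was not varied, and its rates do not carry over to these data.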

Other observations

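By gene class, 1176 protein-coding genes rose and 775 fell of 14619 tested, so that 13.3% were called. Of 389 lincRNA genes 6 rose and 20 fell (6.68% called), and of 445 antisense genes 1 rose and 12 fell (2.92% called). The counting is not stated to use strand, so reads of an antisense gene and its partner cannot be told apart. Whether the classes differ was not tested, and their levels differ.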
